A study of Homo sapiens with 12 samples.

Results

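The effect of TNFα, a cytokine that activates the transcription factor NF-kB, was compared between HEK293 cells without and with Senexin B, a small molecule that inhibits CDK8 and CDK19, and the quantity described here is the interaction of these treatments. It was computed gene by gene from all 12 RNA sequencing libraries of the series as the log2 change TNF_SnxB minus SnxB, less the log2 change TNF minus DMSO. A value of 0 means that the effects of both agents multiplied, so that they were additive on the log2 scale. A value below 0 means that the log2 TNFα effect, counted with its sign, was lower with Senexin B than without it. Equally, it means that the log2 Senexin B effect was lower with TNFα than without it. For a gene raised by TNFα in both conditions this is a smaller rise with Senexin B. For a gene lowered in both it is a larger fall. Of 56634 gene symbols in the count table, 14822 passed a filter on low counts and are the genes tested, and 25096 had no count in any library. HEK293 is a human embryonic kidney line, and each of the 4 groups held 3 libraries labelled as biological triplicates. The DMSO group received 0.1% DMSO as vehicle for 3 h in all. The SnxB group received 1 µM Senexin B for 3 h in all without TNFα. The TNF group had vehicle for 1 h and then 10 ng/mL TNFα for 2 h. The TNF_SnxB group had 1 µM Senexin B for 1 h and then 10 ng/mL TNFα for 2 h. DMSO is recorded at 0.1% for the DMSO and TNF groups and at 0 for the SnxB and TNF_SnxB groups. In bulk RNA, fewer cells that express a gene and less RNA per cell cannot be told apart.

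As background, TNFα bound to its receptor activates the IKK kinases, which mark the inhibitor IκBα for destruction and so release NF-kB to the nucleus. NF-kB then switches on chemokines, survival genes and its own inhibitors, among them NFKBIA (IκBα) and TNFAIP3 (A20), which close a negative feedback loop. CDK8 and CDK19 belong, with cyclin C, MED12 and MED13, to the kinase module of Mediator, the complex that links transcription factors to RNA polymerase II.

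The upstream 250 bases of 5 genes are shown because the results turn on them: NFKBIA, SDC4, TIFA and JUN had an interaction in each of 3 fits described below, and NFKB1 was raised by TNFα with an interaction close to 0. The sequences are from RefSeq (GRCh38.p14), 5′ to 3′ on the strand of the gene, and capitals mark matches to the NF-kB (kB) consensus motif on either strand. The windows are chr14:35404750-35404999 on the minus strand for NFKBIA, chr20:45348425-45348674 on the minus strand for SDC4, chr4:102501109-102501358 on the plus strand for NFKB1, chr4:112285905-112286154 on the minus strand for TIFA and chr1:58784048-58784297 on the minus strand for JUN.
NFKBIA: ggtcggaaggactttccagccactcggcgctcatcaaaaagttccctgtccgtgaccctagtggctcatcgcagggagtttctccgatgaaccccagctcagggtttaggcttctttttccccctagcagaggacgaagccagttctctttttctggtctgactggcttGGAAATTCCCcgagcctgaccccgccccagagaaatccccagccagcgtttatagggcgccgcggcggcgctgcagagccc
SDC4: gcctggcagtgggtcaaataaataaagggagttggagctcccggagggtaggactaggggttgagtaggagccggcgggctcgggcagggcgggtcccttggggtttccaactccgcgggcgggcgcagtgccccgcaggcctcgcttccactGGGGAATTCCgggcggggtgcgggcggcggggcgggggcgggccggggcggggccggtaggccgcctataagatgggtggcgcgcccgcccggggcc
NFKB1: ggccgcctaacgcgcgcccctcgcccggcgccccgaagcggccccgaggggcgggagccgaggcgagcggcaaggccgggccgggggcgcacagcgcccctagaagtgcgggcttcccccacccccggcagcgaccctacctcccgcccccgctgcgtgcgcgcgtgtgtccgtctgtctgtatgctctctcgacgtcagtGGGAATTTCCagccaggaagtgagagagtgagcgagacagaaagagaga
TIFA: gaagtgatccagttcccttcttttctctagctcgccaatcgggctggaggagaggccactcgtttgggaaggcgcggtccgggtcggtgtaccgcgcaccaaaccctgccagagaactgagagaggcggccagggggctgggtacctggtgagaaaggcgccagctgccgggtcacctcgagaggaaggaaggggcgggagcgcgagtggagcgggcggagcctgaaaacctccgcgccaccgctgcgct
JUN: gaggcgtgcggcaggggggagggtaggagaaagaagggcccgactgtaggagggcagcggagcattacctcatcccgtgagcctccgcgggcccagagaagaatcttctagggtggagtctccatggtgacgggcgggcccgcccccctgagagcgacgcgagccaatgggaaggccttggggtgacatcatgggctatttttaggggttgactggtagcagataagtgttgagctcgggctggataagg

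In the NFKBIA window the match started 81 bases before the start site, in SDC4 97 bases and in NFKB1 49 bases before it. On the strand of the motif the match in NFKBIA and in NFKB1 had the same letters, GGGAATTTCC, and that in SDC4 was GGGGAATTCC. In windows of 300 bases (250 before to 50 after the start site), those of TIFA and JUN held no match to these letters. The kB motif was present in 5.72% of all 27305 promoter windows of the table and in 6.72% of the 10896 windows matched to tested genes. It was present in 55.9% of the 34 windows matched to the 47 genes that TNFα raised at least 2-fold on average. The AP-1 motif TGANTCA was in 7.76% of all windows, in 4.25% of those matched to tested genes and in none of these 5. The letters tgacatca in the JUN window do not match this pattern, and other forms of the motif were not searched. These matches describe letters in a window, not binding.

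Library totals ran from 8705277 to 50943310 counts, with TNF library 2 the deepest, and 3 counts in a library corresponded to 0.0589 to 0.345 normalised counts (CPM, scaled to the total of each library), a floor that covers counting error only. Of 15 leukocyte markers 0 passed the filter, and their summed level was 1.23 to 2.26 CPM over the 12 libraries. The HEK293 and kidney epithelial or neuronal filament markers, 8 of 10 of them tested, summed to 987 to 1107 CPM. TNF_SnxB libraries 2 and 3 stood apart in base composition: across the 13754 tested genes with a transcript GC content, their deviation from the mean of each gene had a Spearman correlation with GC of -0.68 and -0.68, against -0.12 to 0.45 in the other 10 libraries. TNF_SnxB library 1 stood apart in another way, since the RNAs RN7SK, RMRP, RPPH1, RN7SL1 and SNORD3A, which lack a poly(A) tail, summed to 220 CPM there and to 8.36 to 45.9 CPM in the other 11. A chi-square per degree of freedom between libraries of a group was 1.07 to 1.58 everywhere else but 5.63 and 5.39 between TNF_SnxB library 1 and libraries 2 and 3. Every interaction uses the TNF_SnxB group, so 3 fits were made. The first used all 12 libraries, and the next added a correction of each library for transcript GC content and length. The last kept TNF_SnxB library 1 as the only library of its group. Not every gene is given with all 3, and a value without a named fit is from all 12 libraries uncorrected.

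With all 12 libraries 370 genes had an interaction (edgeR quasi-likelihood test, Benjamini-Hochberg adjusted p under 0.05), 2.5% of those tested, 238 below 0 (1.61%) and 132 above 0 (0.891%). After the GC and length correction 27 genes were called, 0.182%, 15 below 0 (0.101%) and 12 above 0 (0.081%). With TNF_SnxB library 1 alone 19 of 15276 genes were called, 0.124%, 7 below 0 (0.0458%) and 12 above 0 (0.0786%), where the lone library is assumed to vary like the other groups. The genes called with all libraries and after the correction numbered 12 (0.081%), and 4 were called in all 3 fits (0.027%): NFKBIA, SDC4 and JUN below 0 and TIFA above 0.

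As background to these counts, TNFα without Senexin B raised 212 genes (1.43% of those tested) and lowered 88 (0.594%), and with Senexin B it raised 1094 (7.38%) and lowered 1012 (6.83%). Senexin B without TNFα raised 51 genes (0.344%) and lowered 250 (1.69%), and with TNFα it raised 1974 (13.3%) and lowered 2055 (13.9%). The comparisons with the larger counts are those that use the TNF_SnxB group.

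The count of 370 genes moved with GC content. Across genes the interaction correlated with transcript GC at Spearman -0.68 with all libraries, -0.01 after the correction and -0.22 with library 1 alone, and genes are not independent replicates. The median GC content was 63.5% in the genes called below 0, 38.0% in those called above 0 and 48.4% in all tested genes. In the tenth of genes with the highest GC content 154 were called below 0 and 0 above 0, with a median interaction of -0.26, and in the tenth with the lowest 0 were called below 0 and 83 above 0, with a median of 0.20. After the correction these medians were 0.01 and 0.02. The count also moved with single libraries. It was 4534 without TNF_SnxB library 1, 336 without DMSO library 2, 16 without TNF library 2, 11 without DMSO library 1, 10 without SnxB library 1, 9 without SnxB library 2 and 5 without TNF_SnxB library 2. It was 3 without DMSO library 3, SnxB library 3, TNF library 1, TNF library 3 or TNF_SnxB library 3, and each time the 3 genes were NFKBIA, SDC4 and TIFA.

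**Figure D1:**
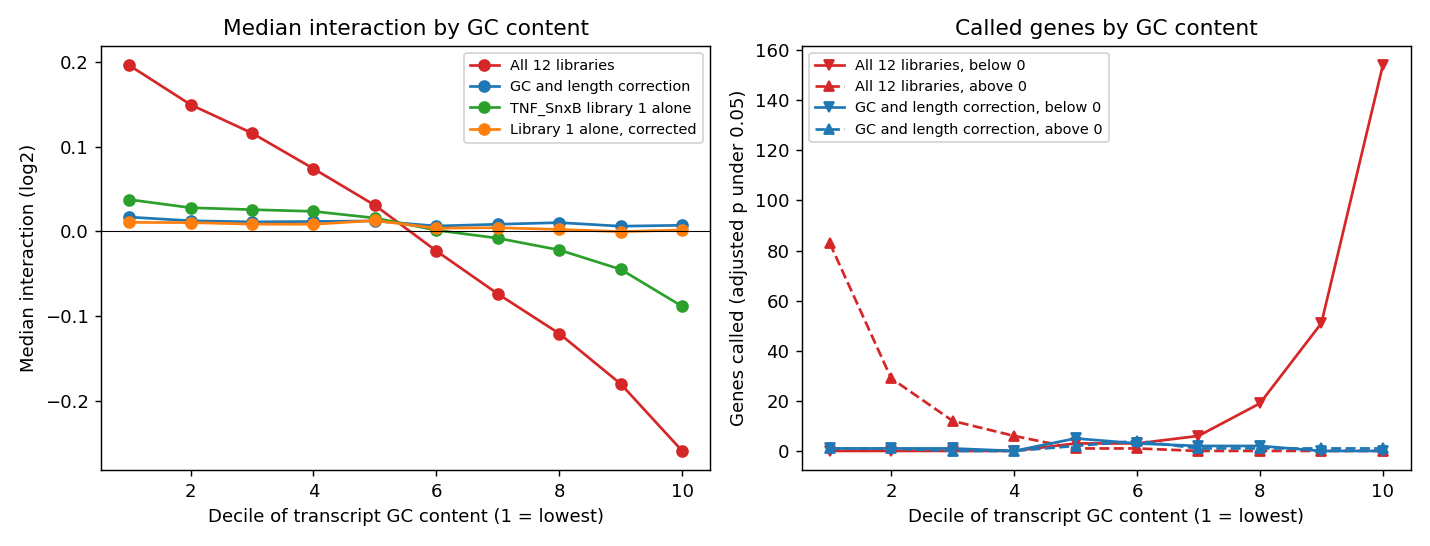
Left, median interaction (log2, y axis) by decile of the GC content of transcripts (x axis, with 1 as the lowest) for the fit with all 12 libraries, after the GC and length correction, with TNF_SnxB library 1 alone, and with that library alone after the correction. Right, genes called below and above 0 in each decile in the first 2 of these fits. With all libraries the median runs from 0.20 to -0.26 and the calls sit at both ends, and after the correction the median stays between 0.01 and 0.02.

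NFKBIA, the gene of the NF-kB inhibitor IκBα (GRCh38 chr14:35401511-35404749), had the interaction farthest below 0 among the genes called in all 3 fits. Its level was 25.2, 27.7 and 29 CPM in DMSO, 32.6, 29.9 and 29.8 in SnxB, 272, 271 and 269 in TNF and 188, 168 and 165 in TNF_SnxB. The TNF_SnxB libraries lay below all TNF libraries and far above both groups without TNFα, while DMSO and SnxB lay close together without overlapping. TNFα raised the gene 9.93-fold without and 5.63-fold with Senexin B. The interaction was -0.82 (SE 0.0906, 95% interval -1.0 to -0.63), with an edgeR adjusted p of 1.28e-05. The product of both single effects would have given 306 CPM, and the observed 174 ± 12.5 CPM (SD, n = 3) was 0.567 of it (95% interval 0.499 to 0.645). The 3 libraries were each below that level, at 0.615, 0.548 and 0.541 of it. The value was -0.75 after the correction and -0.70 with library 1 alone, with edgeR adjusted p of 2.84e-09 and 2.45e-09. In CPM the rise with TNFα was 244 without and 143 with Senexin B, 58.7% of it. Senexin B made no called difference to NFKBIA without TNFα (1.13-fold, edgeR adjusted p 0.363) and lowered it to 0.639-fold with TNFα (edgeR adjusted p 1.74e-11).

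SDC4, which encodes the heparan sulfate proteoglycan syndecan-4 of the cell surface (chr20:45325288-45348424), showed the same arrangement. Its level was 25.5, 24.6 and 24.3 CPM in DMSO, 22.4, 21.7 and 22.2 in SnxB, 151, 144 and 144 in TNF and 79.4, 88.6 and 86.6 in TNF_SnxB. Each TNF_SnxB library lay below each TNF library. TNFα raised it 5.88-fold without and 3.85-fold with Senexin B, an interaction of -0.61 (SE 0.0903, edgeR adjusted p 0.00128), and 84.9 ± 4.88 CPM (SD, n = 3) was 0.655 of the 130 CPM that the product of the single effects gives. The interaction was -0.59 after the correction and -0.71 with library 1 alone (edgeR adjusted p 4.75e-05 and 4.46e-07). Of the rise of 121 CPM without Senexin B, 51.7% was present with it.

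JUN, a subunit of the transcription factor AP-1 (chr1:58780788-58784327), differed from these because Senexin B lowered it without TNFα as well. It was at 280, 287 and 263 CPM in DMSO, 114, 120 and 114 in SnxB, 417, 392 and 396 in TNF and 139, 128 and 122 in TNF_SnxB. All 6 libraries with Senexin B lay below all 6 without it, and the TNF_SnxB and SnxB groups did not overlap but were close. Senexin B brought JUN to 0.420-fold without and 0.323-fold with TNFα. TNFα raised it 1.45-fold without and 1.12-fold with Senexin B, which in CPM is a rise of 125 and of 14.1. The interaction was -0.38 (SE 0.0661, edgeR adjusted p 0.0141), -0.24 after the correction (adjusted p 0.00461) and -0.27 with library 1 alone (adjusted p 0.0211). JUN was called in 17 of 23 alternative settings, with the adjusted p reaching 0.075 without TNF_SnxB library 3. The 6 settings that lost the call each left out 1 library, namely DMSO 3, SnxB 2, SnxB 3, TNF 1, TNF 3 or TNF_SnxB 3. NFKBIA, SDC4 and TIFA were called in all 23, with adjusted p up to 0.000428, 0.0174 and 0.0203.

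TIFA, an adaptor protein that activates TRAF6 upstream of NF-kB (chr4:112274542-112285903), moved the other way. It was at 25.8, 22.6 and 23.9 CPM in DMSO, 22.7, 23.8 and 20.6 in SnxB, 54.9, 56.1 and 56.2 in TNF and 78.0, 84.0 and 81.7 in TNF_SnxB. The TNF_SnxB libraries were the 3 highest, and DMSO and SnxB overlapped. TNFα raised it 2.31-fold without and 3.63-fold with Senexin B, an interaction of 0.65 (SE 0.0949, edgeR adjusted p 0.00128), so that 81.2 ± 3.00 CPM (SD, n = 3) was 1.57 times the 51.8 CPM of the product of the single effects. The interaction was 0.50 after the correction and 0.59 with library 1 alone (edgeR adjusted p 0.000963 and 0.00029).

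**Figure D2:**
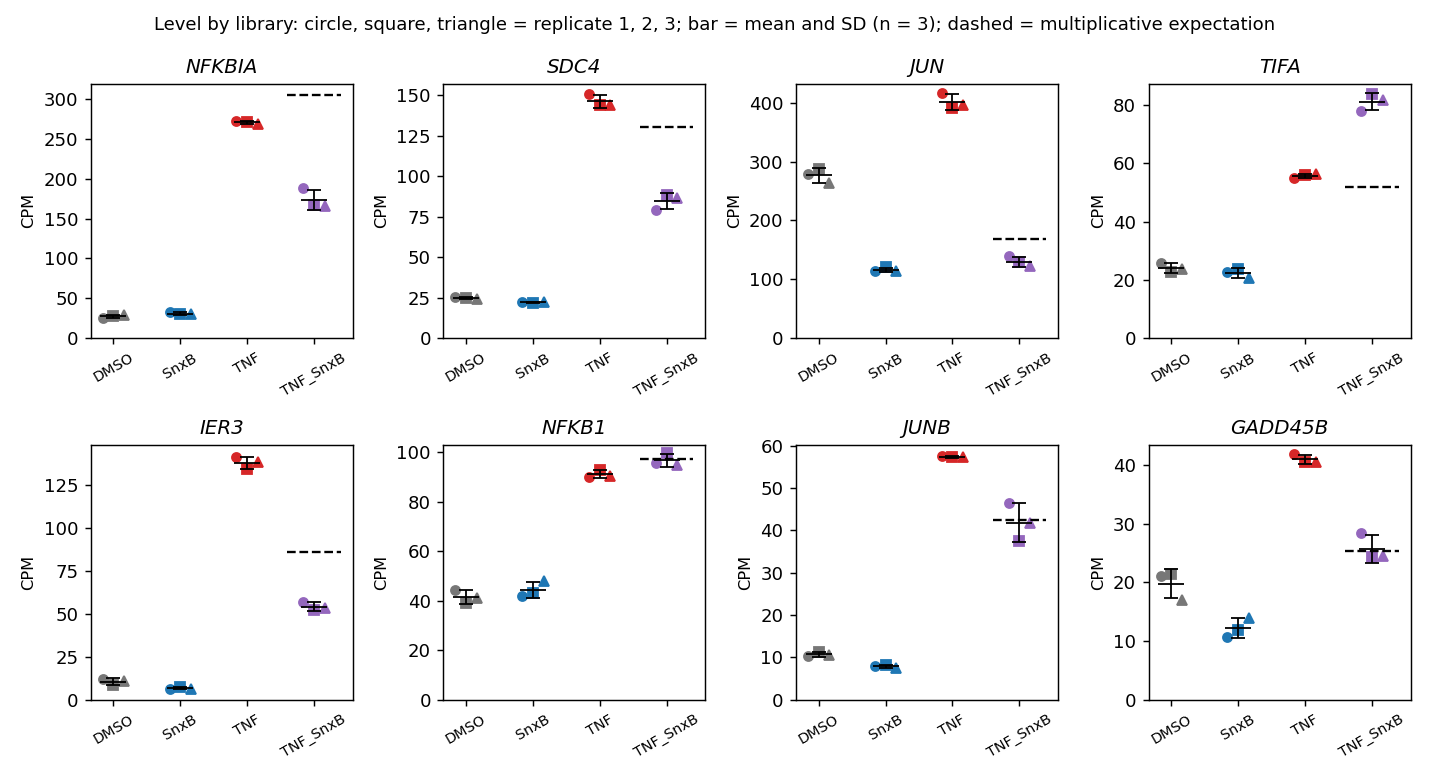
CPM (y axis) of 8 genes in the 12 libraries by group (x axis), with a symbol for each replicate, the mean and SD of 3 libraries as a bar, and the product of the single effects (SnxB times TNF over DMSO) as a dashed line. The TNF_SnxB libraries lie below the line for NFKBIA, SDC4, JUN and IER3, above it for TIFA and on both sides of it for NFKB1, JUNB and GADD45B.

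The other 8 genes called with all libraries and after the correction had the same sign with library 1 alone, where none of the 8 was called. Of those below 0, CITED2, a transcriptional co-regulator that binds CBP and p300, was lowered by each agent and further by both. It was at 40.7, 40.0 and 42.9 CPM in DMSO, 31.6, 31.8 and 34.4 in SnxB, 34.3, 32.1 and 30.7 in TNF and 20.6, 17.5 and 20.2 in TNF_SnxB, and the last group lay below all other libraries. Its interaction was -0.40 with all libraries (edgeR adjusted p 0.0377), -0.40 after the correction and -0.30 with library 1 alone. NAGK, the kinase of N-acetylglucosamine, was at 18.4 ± 0.619 CPM in TNF_SnxB and 21.7 to 24.5 in the means of the other groups (interaction -0.52, and -0.49 after the correction). C20orf24 had the group means 33.4, 39.7, 40.4 and 31.6 CPM in DMSO, SnxB, TNF and TNF_SnxB (interaction -0.63, and -0.58 after the correction), but the value was -0.28 with library 1 alone, whose 39.4 CPM lay within the range of SnxB and TNF while libraries 2 and 3 had 26.6 and 28.8. PRELID1, which carries phosphatidic acid between the mitochondrial membranes, and EXOSC6, a subunit of the RNA exosome, had smaller interactions of -0.34 and -0.30, and of -0.20 and -0.34 after the correction.

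Of those above 0, KLF9, a zinc finger transcription factor, was at 36.1 ± 0.650, 27.7 ± 0.887, 43.1 ± 2.00 and 43.1 ± 2.14 CPM (SD, n = 3) in DMSO, SnxB, TNF and TNF_SnxB. Senexin B lowered KLF9 to 0.768-fold without TNFα (edgeR adjusted p 0.000897), and with TNFα both groups had the same mean. Its interaction was 0.39, and 0.36 after the correction. BNIP3, a mitochondrial protein of mitophagy and cell death, was at 52.6 ± 4.12, 50.7 ± 3.82, 44.0 ± 2.84 and 55.8 ± 4.02 CPM in the same order (interaction 0.42, and 0.48 after the correction). PMAIP1, which encodes the pro-apoptotic BH3 protein NOXA, was at 380, 360 and 388 CPM in DMSO, 177, 182 and 185 in SnxB, 417, 413 and 415 in TNF and 223, 267 and 270 in TNF_SnxB. Senexin B brought it to 0.482-fold without and 0.613-fold with TNFα. The PMAIP1 interaction of 0.35 was 0.17 after the correction and 0.16 with library 1 alone, and its transcript GC content was 37.2%. These 8 genes were each called in 9 to 12 of 22 or 23 alternative settings.

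**Figure D3:**
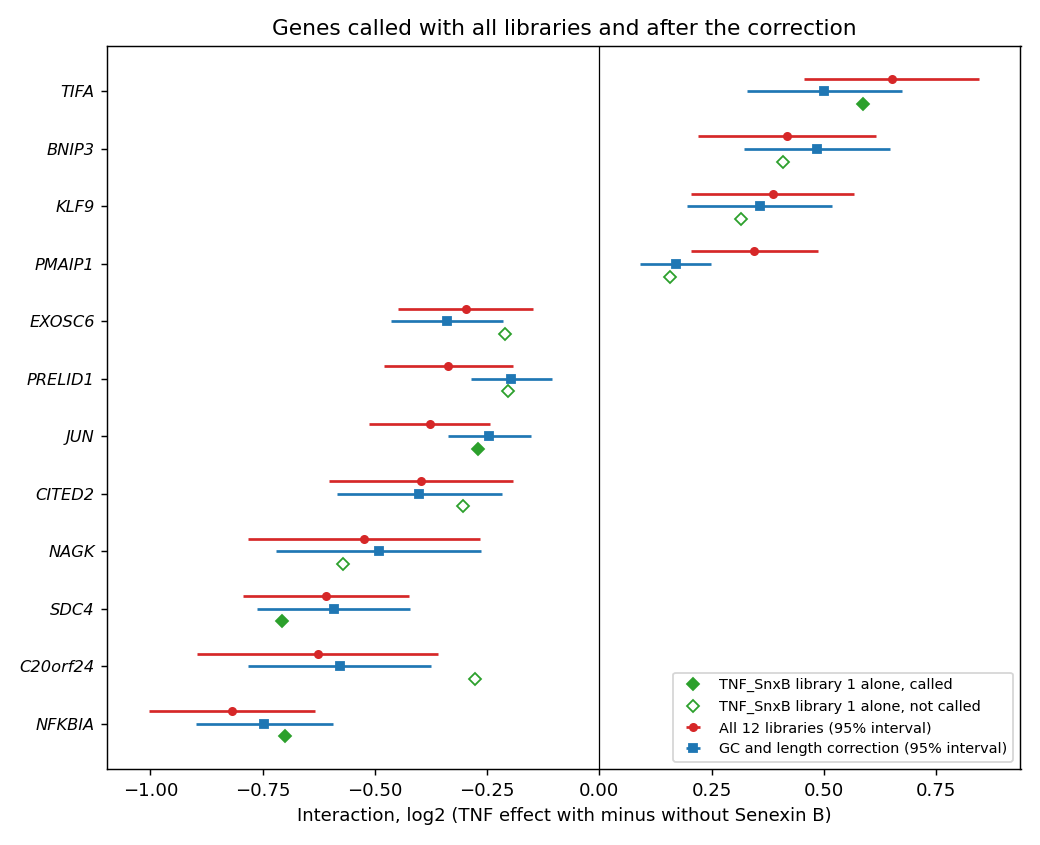
Interaction (log2, x axis) of the 12 genes called with all libraries and after the correction (y axis). Circles are the values with all 12 libraries and squares those after the GC and length correction, both with 95% intervals, and diamonds those with TNF_SnxB library 1 alone, filled where called. NFKBIA lies farthest below 0 at -0.82 and TIFA farthest above 0 at 0.65, and the 4 filled diamonds are NFKBIA, SDC4, JUN and TIFA.

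Further genes of the TNFα response and of the gene lists were called with all 12 libraries but not after the correction. IER3, an early response gene of cell survival, was at 12.1, 8.60 and 10.9 CPM in DMSO, 6.15, 7.20 and 6.24 in SnxB, 142, 135 and 139 in TNF and 57.0, 52.2 and 53.5 in TNF_SnxB. The 4 groups of IER3 did not overlap. Its interaction was -0.66 (SE 0.145, edgeR adjusted p 0.0282), with -0.49 after the correction and -0.58 with library 1 alone (edgeR adjusted p 0.15 and 0.136), and its TNF_SnxB libraries were at 0.663, 0.608 and 0.623 of the product of the single effects. BIRC2, the inhibitor of apoptosis cIAP1, had an interaction of 0.37, with 0.20 after the correction (adjusted p 0.324). For JUND the value of -0.44 was -0.06 after the correction, and for SHARPIN, a subunit of the linear ubiquitin ligase, -0.41 became -0.09. The transcript GC content was 58.5% in IER3, 38.0% in BIRC2, 69.7% in JUND and 66.9% in SHARPIN. Whether base composition accounts for these calls was not tested beyond the correction.

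On average over both Senexin B conditions TNFα raised 464 genes, 3.13% of those tested, and lowered 320, 2.16% (edgeR adjusted p under 0.05). Of the 464 raised, 27 were non-additive, 21 of them above 0 and 6 below 0, 367 were near-additive, meaning that they were not called and that the 95% interval of the interaction lay within a 1.5-fold change either way, and 70 were unresolved. After the correction 623 genes were raised on average, of which 8 were non-additive (4 above 0 and 4 below 0), 542 near-additive and 73 unresolved. Of all tested genes 69.1% were near-additive and 28.4% unresolved with all libraries, and 74.8% and 25% after the correction. The median interaction was 0.10 over the 464 genes against 0.00 over all tested genes, and 0.04 against 0.01 after the correction.

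Among the 47 genes that TNFα raised at least 2-fold on average, 4 were non-additive (NFKBIA, SDC4, IER3 and TIFA), 12 near-additive and 31 unresolved. Their median interaction was -0.03, with 26 below 0 and 21 above 0. Of the 17 raised at least 4-fold, 14 were below 0, with a median of -0.64, 3 were called and 13 were unresolved. After the correction the median of these 17 was -0.59, again with 14 below 0, and 2 of them had no count in DMSO or SnxB, so that their values depend on the prior count of the fit.

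The near-additive genes fell in different patterns, shown here by genes chosen after their values were seen. NFKB1, the precursor of the NF-kB subunit p50, was at 44.4, 39.2 and 40.9 CPM in DMSO, 41.7, 43.1 and 48.0 in SnxB, 89.8, 93.0 and 90.6 in TNF and 95.7, 99.9 and 95 in TNF_SnxB. TNFα raised it 2.20-fold without and 2.19-fold with Senexin B, an interaction of -0.01 (95% interval -0.18 to 0.16). IRF1, a transcription factor of the interferon response, was likewise near its expected level, with 36.5 ± 3.68 CPM observed and 37.9 expected. For both genes the DMSO and SnxB libraries overlapped. In BMP2 and GADD45B the inhibitor lowered both the basal and the induced level. BMP2, a secreted growth factor of the TGF-beta family, was at 26.2 ± 1.61 and 57.0 ± 1.54 CPM without and with TNFα in vehicle and at 16.7 ± 1.76 and 36.9 ± 1.06 CPM in Senexin B (SD, n = 3), a TNFα effect of 2.19-fold and 2.22-fold. GADD45B, a stress response gene, was raised 2.07-fold and 2.08-fold. JUNB, another AP-1 subunit, had 10.2, 11.3 and 10.6 CPM in DMSO, 7.98, 8.24 and 7.51 in SnxB, 57.7, 57.4 and 57.3 in TNF and 46.4, 37.4 and 41.7 in TNF_SnxB, with an interaction of -0.03 and of 0.24 after the correction. Senexin B lowered JUNB with TNFα to 0.724-fold (edgeR adjusted p 2.78e-06), and without TNFα its 0.740-fold level missed the threshold (adjusted p 0.0656). In CPM the rise in BMP2 was 30.8 without and 20.2 with Senexin B, so that a gene near-additive on the log2 scale kept 65.4% of its rise on the linear scale. The same share was 63.8% in GADD45B, 72.7% in JUNB, 93.2% in IRF1 and 106% in NFKB1.

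**Figure D4:**
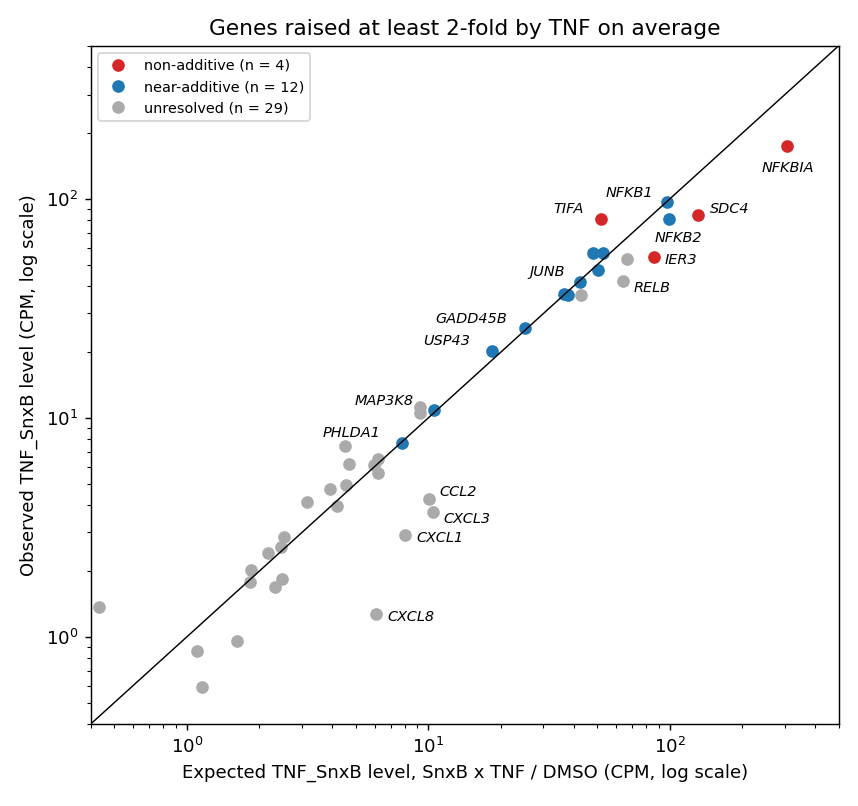
Observed mean CPM in TNF_SnxB (y axis, log scale) against the level given by SnxB times TNF over DMSO (x axis, log scale) for 45 genes that TNFα raised at least 2-fold on average and that had a count in every group, with the line of equality. Non-additive genes (4) are red, near-additive genes (12) blue and unresolved genes (29) grey, and NFKBIA, SDC4 and IER3 lie below the line, TIFA above it, and CXCL1, CXCL3, CXCL8 and CCL2 below it at low levels.

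Among cytokines and chemokines, several chemokines had negative values and IL15 a positive one, all of them unresolved with all 12 libraries. CXCL8, the neutrophil chemokine interleukin-8, had 2, 0 and 2 counts in DMSO, 0, 4 and 1 in SnxB, 45, 234 and 39 in TNF and 11, 15 and 20 in TNF_SnxB. Its level in the TNF group was 4.98, 4.64 and 3.43 CPM and in TNF_SnxB 1.21, 1.2 and 1.43 CPM, and these groups did not overlap. Senexin B brought CXCL8 to 0.292-fold in the presence of TNFα (edgeR adjusted p 2.78e-06), but the interaction of -2.26 had a 95% interval of -4.39 to -0.13 and an adjusted p of 0.184, since the groups without TNFα held 4 and 5 counts in all. IL15, a growth factor of lymphocytes, went the other way, with 1.48, 1.42 and 0.690 CPM in DMSO, 1.14, 1.14 and 0.952 in SnxB, 0.775, 0.952 and 0.792 in TNF and 0.768, 1.60 and 1.79 in TNF_SnxB. Its groups overlapped, its interaction was 0.82 (95% interval -0.13 to 1.77, edgeR adjusted p 0.28), and with library 1 alone it was -0.09. The negative chemokines CXCL1, CXCL10 and CCL20 were added after their values were seen. CXCL1 fell to 0.200-fold with TNFα, from 15.2, 15.0 and 14.6 CPM to 2.41, 3.43 and 2.93 CPM, with an interaction of -1.40 (95% interval -3.20 to 0.41). The monocyte chemokine CCL2 and the neutrophil chemokine CXCL3 had interactions of -1.20 and -1.53 and edgeR adjusted p of 0.0833 and 0.078. CCL2 was called in 5 of 22 alternative settings, CXCL3 in 1, and CXCL8 and IL15 in 0. CCL2 was at 6.53, 6.33 and 7.39 CPM in TNF and at 4.94, 2.39 and 5.43 CPM in TNF_SnxB. CXCL10 and CCL20, which attract T cells and dendritic cells, had 0 counts in the 6 libraries without TNFα, so that no bound can be put on their interaction. In the presence of TNFα, CXCL10 was 0.493-fold and CCL20 0.297-fold with Senexin B (edgeR adjusted p 0.00329 and 0.000415).

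Over the whole list of cytokines and chemokines, 16 of 30 genes were tested, 10 of them were raised by TNFα on average, and 0 were called for the interaction by edgeR, with 3 (18.8%) at an unadjusted p under 0.05, against 3489 (23.5%) of all tested genes, and none given an adjusted p by DESeq2. Their median interaction was -0.52 with 12 below 0, and -0.56 after the correction, against 0.00 and 0.01 over all tested genes. Of the list, 1 gene was near-additive (6.25%), against 69.1% of all tested genes. That gene was CSF1, the macrophage growth factor, at 0.02.

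Of the regulators and subunits of NF-kB, 21 of 22 were tested and 15 were raised by TNFα on average. For the interaction NFKBIA was called below 0 and BIRC2 above 0 (9.52% of the list, against 2.5% of all tested genes). After the correction 1 of the 21, NFKBIA, was called, against 0.182% of all tested genes. In the list 11 were near-additive (52.4%, against 69.1%), with a median of -0.12 and of 0.03 after the correction. NFKBIZ, a nuclear IκB protein, was at 6.28 ± 1.02, 6.51 ± 0.360, 11.3 ± 0.722 and 7.40 ± 0.528 CPM in DMSO, SnxB, TNF and TNF_SnxB, an interaction of -0.62 that missed the threshold (edgeR adjusted p 0.0579, and 0.125 after the correction). RELB and TNFAIP3 were also chosen after their values were seen. RELB, an NF-kB subunit, had -0.64 (adjusted p 0.0811) and -0.35 after the correction, and its TNF_SnxB libraries held 48.8, 40.0 and 37.2 CPM, library 1 being within the TNF range of 48.5 to 51.6. TNFAIP3, which encodes the deubiquitinating enzyme A20, had -0.25 (95% interval -0.66 to 0.15). Among other TNFα target genes 33 of 40 were tested and 22 were raised on average. SDC4 and IER3 were called below 0 and TIFA above 0 (9.09%, against 2.5%). After the correction SDC4 and TIFA were called and IER3 was not. In this list 16 were near-additive (48.5%, against 69.1%), with a median of -0.13 and of -0.04 after the correction. All lists were chosen with earlier results of these data known, so their shares are description only. The list of proteins from the TNF receptor to the IKK complex had 19 of 20 tested and 0 raised or lowered by TNFα on average. SHARPIN was called below 0 (5.26%, against 2.5%), 18 were near-additive (94.7%, against 69.1%), and after the correction 0 were called and 19 were near-additive.

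Immediate-early genes, which respond to signals without new protein synthesis, had 37 of 40 tested, 14 raised by TNFα and 18 lowered by Senexin B on average. JUN and JUND were called below 0, JUN alone after the correction, which is 5.41% of the list with all libraries against 2.5% of all tested genes. In the list 21 were near-additive (56.8%, against 69.1% of all tested genes). KLF10 and ZFP36, which encodes an mRNA decay factor, had positive values of 0.35 and 0.79 (edgeR adjusted p 0.0606 and 0.0968). MYC, named here after its values were seen, was the gene farthest lowered by Senexin B on average. It was at 87.9, 95.6 and 89.7 CPM in DMSO, 17.8, 17.4 and 18.9 in SnxB, 91.7, 87.9 and 92.0 in TNF and 25, 21.2 and 19.5 in TNF_SnxB. The groups with and without Senexin B were far apart, and TNF and DMSO overlapped. Its interaction was 0.27 (95% interval 0.06 to 0.49, edgeR adjusted p 0.117) and 0.37 after the correction (edgeR adjusted p 0.0555). The MYC value was larger with library 1 alone, at 0.49, and at 0.51 with that library alone after the correction.

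On average over both TNFα conditions Senexin B raised 1072 genes (7.23%) and lowered 1238 (8.35%). Of the 27 genes that it lowered at least 2-fold on average, JUN and IER3 were non-additive, 11 near-additive, MYC among them, and 14 unresolved, and their median interaction was 0.02. The inducible heat shock gene HSPA1A, named after its values were seen, had 498 ± 21.7, 177 ± 3.73, 526 ± 12.3 and 195 ± 12.9 CPM in DMSO, SnxB, TNF and TNF_SnxB. Its interaction of 0.06 was not called with all libraries and was 0.24 after the correction (edgeR adjusted p 0.000963). Its near-identical copy HSPA1B, with which it can share reads, had -0.02 and 0.15 (adjusted p 0.114), so the value of either gene is uncertain.

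The kinase module itself showed no called interaction. All 7 genes of the list were tested, 0 were called by edgeR or DESeq2, 0 had an unadjusted p under 0.05, 2 had no adjusted p from DESeq2, and all 7 were near-additive with all libraries and after the correction, against 69.1% and 74.8% of all tested genes. CDK8 was at 39.0 ± 1.39, 38.1 ± 1.55, 38.0 ± 2.26 and 39.9 ± 3.70 CPM (SD, n = 3) in DMSO, SnxB, TNF and TNF_SnxB, an interaction of 0.11 (95% interval -0.09 to 0.31). CDK19 had 0.21, CCNC 0.15, MED12 -0.11 and MED13 0.12, and after the correction the 5 values ran from -0.02 in MED13 to 0.12 in CDK19. Of 24 genes of transcription elongation 0 were called by edgeR or DESeq2, 10 (41.7%) had an unadjusted p under 0.05, against 23.5% of all tested genes, and 22 (91.7%) were near-additive, against 69.1%. DESeq2 gave 20 of the 24 an adjusted p. ELL2, a subunit of the super elongation complex, had 0.28 and 0.14 after the correction.

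In the other lists single genes were called with all 12 libraries. HES4 of the Notch targets had -0.56, ID3 of the TGF-beta and BMP targets -0.31, LDHA of the hypoxia genes 0.19 and IDI1 of the sterol synthesis genes 0.26, and after the correction these were -0.20, -0.17, 0.12 and 0.14, none of them called. HES4 has the highest transcript GC content of the 4, 73.9%, and IDI1 the lowest, 41.1%. BNIP3 of the hypoxia genes and PMAIP1 of the p53 targets are described above. The share called was thus 1 of 8 Notch targets, 1 of 14 TGF-beta and BMP targets, 2 of 17 hypoxia genes, 1 of 19 sterol synthesis genes and 1 of 14 p53 targets, against 2.5% of all tested genes. With library 1 alone the interaction was 0.18 in LDHA, lactate dehydrogenase A, and 0.21 in PGK1, phosphoglycerate kinase. PGK1 was not called with all 12 libraries (0.16, edgeR adjusted p 0.0727) or after the correction (0.09, adjusted p 0.55). Interferon and STAT targets (14 tested, median 0.02) had 0 calls by edgeR or DESeq2, which gave 2 of the 14 an adjusted p, and 3 genes (21.4%) at an unadjusted p under 0.05, against 23.5% of all tested genes. Heat shock genes (14 tested, median 0.03) and cell cycle genes (17 tested, median -0.04) each had 0 calls by both tools and 5 genes at an unadjusted p under 0.05, which is 35.7% and 29.4% against 23.5% of all tested genes. DESeq2 gave an adjusted p to 12 of the 14 and 15 of the 17. After the correction 1 heat shock gene, HSPA1A, was called above 0 by edgeR, and 0 cell cycle genes were called. All 17 cell cycle genes were near-additive, against 69.1% of all tested genes. Over all lists, the rule for naming genes took 74 genes, of which 20 were called with all 12 libraries and 54 were not, the latter with interactions from -2.26 in CXCL8 to 0.82 in IL15.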

How the data were processed

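RNA sequencing of 12 HEK293 libraries, 3 in each of 4 groups, was deposited as a table of raw counts per gene symbol. Per the submitters' processing notes the authors used STAR 2.4, SAMtools 1.2 and featureCounts of Subread 1.4.6 with hg38 (GRCh38). For the annotation and strand setting, the sources used here give no entry, so reads of overlapping or antisense genes cannot be told apart. Library totals were 8705277 to 50943310 counts. Replicates are labelled as biological triplicates.

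The deposited counts were tested with edgeR 4.0.16 (quasi-likelihood F test, TMM scaling, its default filter on low counts) in R 4.3.3, with limma 3.58.1 as its base, and p-values were Benjamini-Hochberg adjusted over all 14822 genes tested, at a threshold of 0.05. Genes below the filter took up to 0.181% of any library's counts. The interaction, both TNFα effects, both Senexin B effects and the 2 average effects made 7 contrasts of 1 fit over the 4 groups. Intervals are 95% intervals from the standard errors of that fit. Near-additive means not called with an interval within a 1.5-fold change, and unresolved means neither called nor near-additive. The expected level is SnxB times TNF over DMSO in CPM, which were computed from the counts.

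Transcript GC content and length were taken from GENCODE (GRCh38) and matched 13754 tested genes (92.8%). The correction used a loess fit per library (span 0.5) as an offset, with genes without a GC value given the median offset of the library. Promoters were from RefSeq. The test was checked on simulated data, which held planted interactions but no other TNFα or Senexin B effects. With the GC trend of TNF_SnxB libraries 2 and 3 included, 90 unchanged genes were called without the correction and 6 with it. Without that trend 14 unchanged genes were called either way. The simulated spread between libraries was set below that of the uncorrected fit, so these counts need not carry over to the data. Alternatives were this correction, TNF_SnxB library 1 alone, other size factors, other low-count filters, TNF library 2 thinned to 10465100 counts, a replicate block, each library left out and DESeq2 1.42.0. A fit without TNF_SnxB library 1 with the correction, and the median over genes raised at least 2-fold, were added after seeing the data. Figures were drawn with matplotlib 3.10.9 in Python 3.11.15.

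The rule for naming took 74 genes, of which the text names those that were called and part of the others. It takes up to 12 on each side of 0 by size of the interaction, with at least 1 CPM in the highest group, called in all 3 fits or filled up with those called with all libraries and after the correction with the same sign in library 1. Up to 4 members of each of 18 lists with the smallest adjusted interaction p were taken too, as were MED12, MED13, CCNC, CDK19 and CDK8. The members and lists were chosen with earlier results of these data known.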

Additional observations from a re-analysis of the deposited data

Results flagged for a closer look

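Of the 370 genes called for the interaction, 20 are among the 74 genes taken by the rule for naming. In these 20 the TNFα effect differed between cells without and with Senexin B by the test of that difference in all 12 libraries (edgeR quasi-likelihood test, Benjamini-Hochberg adjusted p under 0.05). The interaction was -0.82 in NFKBIA, -0.66 in IER3, -0.63 in C20orf24, -0.61 in SDC4, -0.56 in HES4, -0.52 in NAGK, -0.44 in JUND, -0.41 in SHARPIN, -0.40 in CITED2, -0.38 in JUN, -0.34 in PRELID1, -0.31 in ID3 and -0.30 in EXOSC6. Above 0 it was 0.65 in TIFA, 0.42 in BNIP3, 0.39 in KLF9, 0.37 in BIRC2, 0.35 in PMAIP1, 0.26 in IDI1 and 0.19 in LDHA. Of these genes 12 were also called after the GC and length correction, and NFKBIA, SDC4, JUN and TIFA with TNF_SnxB library 1 alone as well.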

How the results depend on the processing

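The count of 370 genes (132 above 0 and 238 below 0) was 27 (12 and 15) after the GC and length correction, 19 (12 and 7) without TNF_SnxB libraries 2 and 3, 21 (16 and 5) without them and with the correction, and 711 (257 and 454) without a low-count filter. It stayed within 1.5 times with other size factors (364), a mean of at least 1 CPM (382), TNF library 2 thinned (355), and DESeq2 (449). These counts have unlike bases. DESeq2 gave an adjusted p to 6201 genes, and 289 of its calls are among the 370. Without a low-count filter 31538 genes were tested. Without TNF_SnxB library 1 and with the correction, a fit added after seeing the data, the count was 375, of which 56 are among the 370. Leaving out 1 library gave 3 to 4534 genes, 1 to 2327 above 0 and 2 to 2207 below 0. The median interaction over genes raised by TNFα, 0.10 (0.0956), was 0.0412 with the correction, 0.0395 without TNF_SnxB libraries 2 and 3, 0.0388 without them and with the correction, and 0.0491 without library 1 with the correction. The cause of these changes was not tested beyond the correction.

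With a replicate block 736 genes were called (267 above and 469 below 0), and with block and correction 61 (27 and 34), with a median of 0.0410. Over 18 pairs of same-numbered libraries the correlation of deviations was -0.04 to 0.09, none over 0.1. Of the libraries, 0 correlated best with their own number. The labels give only the number. With 3 libraries per group these correlations cannot show whether same-numbered libraries were handled together.

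Of the 74 genes taken by the rule for naming, the 20 called with all 12 libraries kept the sign of their interaction in every alternative that gave them a value, and 16 of the 54 not called took both signs, among them CCNC, CDK8, CDK19, MED12, MED13 and IL15. Of single effects that did, the TNFα effect with Senexin B had these log2 values. With the correction HES4 had 0.0030, and with block and correction 0.0034. Without TNF_SnxB libraries 2 and 3, CCNC had -0.0195, HES4 0.0488, TOP2A -0.0182 and CDK1 -0.0455, and with the correction as well -0.0109, 0.137, -0.0050 and -0.0405. Without library 1 with the correction SHARPIN had 0.0178 and SKI 0.0132. The Senexin B effect with TNFα was 0.0658 in SHARPIN and -0.0081 in CHUK with the correction, and 0.0670 and -0.0085 with the block as well. Without libraries 2 and 3 it was -0.0362 in CDK19, -0.0112 in CCNC, -0.0180 in LARP7 and 0.0086 in KRT8, and with the correction as well -0.0552, -0.0253, -0.0297 and 0.0251, with 0.0019 in C20orf24, 0.0021 in HES4 and -0.0033 in MDM2. Without library 1 with the correction it was 0.105 in SHARPIN, -0.0201 in CHUK, 0.0112 in NOTCH3 and -0.0858 in PGK1. Depth limits the chemokines, which held few counts without TNFα.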

Other observations

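Several genes were called for the interaction outside the overlap of the fits, named here after their values were seen. With TNF_SnxB library 1 alone, the RNAs RN7SK, RMRP, RPPH1, RN7SL1 and SNORD3A had interactions of 2.55, 2.15, 3.48, 1.61 and 2.82 and the histone gene HIST1H1E 2.87, and these RNAs are those whose summed level sets that library apart. After the GC and length correction 15 genes were called that were not called with all 12 libraries uncorrected.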
